A study of Mus musculus with 7 samples.

Results

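Calcineurin, the RCAN proteins and the NFAT factors were described in mouse sarcoma cells through 10 genes, chosen by name from the 35727 genes of the count table: the calcineurin subunit genes Ppp3ca, Ppp3cb and Ppp3r1, the regulator genes Rcan1, Rcan2 and Rcan3, and the transcription factor genes Nfatc1, Nfatc2, Nfatc3 and Nfatc4. All 10 were found in the table and all 10 passed the filter on low counts. The list was drawn up with results of the comparison below already known, so the values of these 10 genes are a description and carry no p-value. RNA-seq was done on tumour cells from 2 genetic models of a soft-tissue tumour, undifferentiated pleomorphic sarcoma. Both models descend from mesenchymal stem cells of female C57/Bl6 p53KO mice, so loss of p53 is common to both groups. The cells received a retroviral vector for Ccne1 (cyclin E1) in one model and for Vgll3 (a cofactor of TEAD transcription factors) in the other, were passaged through wild-type female mice of the same strain, and were transplanted again. Cells positive for red fluorescent protein (RFP) were then sorted from the tumours. The Ccne1 label was on 4 libraries and the Vgll3 label on 3. The labels name 1 cell line per model, so the transduced gene and any other feature of a line cannot be told apart, and they do not say whether each library came from its own animal. The p-values therefore measure only the spread between these libraries. The age of the mice is not given in the sources used here.

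Calcineurin is a phosphatase that calcium and calmodulin switch on. A catalytic A subunit, encoded by Ppp3ca, Ppp3cb or Ppp3cc, works with a calcium-binding B subunit, encoded by Ppp3r1 in most tissues. Its best known substrates are the NFAT proteins, which lie phosphorylated in the cytoplasm, move to the nucleus when calcineurin removes their phosphates, and often bind DNA beside AP-1. RCAN proteins bind calcineurin and can inhibit it. A short Rcan1 transcript starts at an internal promoter that NFAT is known to activate, so Rcan1 is widely read as a feedback inhibitor of the pathway.

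The libraries held between 21725890 and 53610300 counts. Values are in CPM (each library's counts brought to the same total by TMM), as mean ± SD over the Ccne1-labelled (n = 4) and Vgll3-labelled (n = 3) libraries, and fold changes are Vgll3-labelled over Ccne1-labelled. As a check of the labels, Vgll3 was 50.7 ± 8.57 CPM under the Ccne1 label and 252 ± 34.6 CPM under the Vgll3 label, while Ccne1 was 12.7 ± 5.61 and 14.9 ± 2.16 CPM and so did not stand out under its own label. For that reason the groups go by their labels here. Vgll3 replicate 3 stood apart: its Pearson r across genes with the others of its group was 0.959 and 0.963, against 0.980 to 0.988 for every other pair within a group. Genes are not independent replicates, and this r only describes the libraries. The 7 mesenchymal markers were all tested and summed to 24593 to 31388 CPM under the Ccne1 label and 47244 to 57050 CPM under the Vgll3 label, with no overlap. By edgeR, 4 of them were higher under the Vgll3 label (Col1a1, Col1a2, Col3a1 and Pdgfrb) and 2 lower (Vim and Pdgfra); their part in the results below was not tested. The 8 macrophage markers summed to 6.76 to 9.70 CPM under the Ccne1 label and 5.51 to 13.9 CPM under the Vgll3 label; in bulk libraries, fewer cells of a type and less RNA per cell cannot be told apart.

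Rcan1 and Rcan3 showed the widest differences of the 10 genes, in opposite directions, and their promoter sequences are given here because Rcan1 has an internal start known to respond to NFAT. The sequences are the 250 bases before each start, 5′ to 3′ on the gene's strand, from RefSeq on build GRCm38.p6. Capitals mark GGAAA or its reverse complement TTTCC, the core that NFAT binds. The search covered both strands.
Rcan1 distal start, chr16:92466170-92466419, minus strand: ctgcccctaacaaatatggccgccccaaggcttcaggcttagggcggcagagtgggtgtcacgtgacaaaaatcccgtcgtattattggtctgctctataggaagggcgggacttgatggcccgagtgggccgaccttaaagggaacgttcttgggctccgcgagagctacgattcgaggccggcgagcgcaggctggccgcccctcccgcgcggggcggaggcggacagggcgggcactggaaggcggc
Rcan1 internal start, chr16:92400079-92400328, minus strand: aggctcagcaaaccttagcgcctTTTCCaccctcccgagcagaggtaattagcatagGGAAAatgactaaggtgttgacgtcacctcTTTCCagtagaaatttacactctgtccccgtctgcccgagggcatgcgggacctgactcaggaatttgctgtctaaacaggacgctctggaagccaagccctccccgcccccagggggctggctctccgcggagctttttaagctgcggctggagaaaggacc
Rcan3 start, chr4:135433806-135434055, minus strand: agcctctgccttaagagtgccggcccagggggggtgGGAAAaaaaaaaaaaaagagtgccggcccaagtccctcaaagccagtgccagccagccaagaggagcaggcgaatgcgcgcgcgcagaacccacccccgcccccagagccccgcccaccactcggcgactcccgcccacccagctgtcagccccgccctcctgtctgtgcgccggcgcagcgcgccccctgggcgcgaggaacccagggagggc
The internal Rcan1 window held 3 of these cores, the distal window 0 and the Rcan3 window 1. Of 32851 windows of the same length in the RefSeq table, 55.6% held at least 1 core and 6.39% held at least 3. The internal Rcan1 window also held 1 TGANTCA, the AP-1 core, which overlapped none of the NFAT cores; 6.75% of all windows held that motif. Windows were found for 8 of the 10 genes, all but Ppp3ca and Nfatc1. Windows with 3 cores were also found at Nfatc2, Nfatc4 and Ppp3cb, and a window of Rcan2 also held 1 TGANTCA. A match describes the letters and does not show binding. The counts are per gene, so transcripts from the distal and internal starts of Rcan1 were not separated.

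Among the RCAN genes, Rcan1 was much lower and Rcan3 higher in the Vgll3-labelled libraries. Rcan1 (ENSMUSG00000022951, mm10 chromosome 16, 92391953 to 92470867, protein-coding) had 122, 101, 111 and 112 CPM in Ccne1-labelled replicates 1 to 4. Vgll3-labelled replicates 1 to 3 had 20.7, 19.6 and 19.5 CPM. Each Ccne1-labelled library stood several times above each Vgll3-labelled one, and the spread within a group was narrow, with a coefficient of variation of 7.61% and 3.31%. The means were 111 ± 8.47 and 19.9 ± 0.660 CPM, 5.59-fold higher in the Ccne1-labelled libraries, with a log2 fold change of −2.48 and SE 0.08. Of all 13740 genes tested, 2.15% had a lower log2 fold change.

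Rcan3 (ENSMUSG00000059713, chromosome 4, 135412308 to 135433853, protein-coding), a paralog whose protein also binds calcineurin, had 11.6, 13.7, 13.8 and 11.2 CPM in Ccne1-labelled replicates 1 to 4. In Vgll3-labelled replicates 1 to 3 it had 42.3, 45.2 and 34.9 CPM. The groups did not overlap here either, in the opposite order. The means were 12.6 ± 1.35 and 40.8 ± 5.31 CPM, 3.24-fold higher in the Vgll3-labelled libraries, with a log2 fold change of 1.69 and SE 0.12. Of the genes tested, 5.09% had a higher log2 fold change.

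Rcan2, known for its expression in brain and muscle, had the lowest level per kb of exon among the RCAN genes in both groups. Its values were 3.69, 5.64, 4.15 and 4.11 CPM in the Ccne1-labelled replicates 1 to 4 and 1.99, 0.680 and 3.85 CPM in the Vgll3-labelled replicates 1 to 3. The groups overlapped, since Vgll3-labelled replicate 3 lay above Ccne1-labelled replicate 1. The log2 fold change was −1.02 with SE 0.48 and rested on counts as low as 18 in a library. It was −1.66 without Vgll3 replicate 3 and −0.61 without Vgll3 replicate 2. The 78 tested genes within 5 Mb of Rcan2 had a median log2 fold change of −0.36, with 40 called lower and 4 higher. The part of that segment in the difference was not tested.

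**Figure D1:**
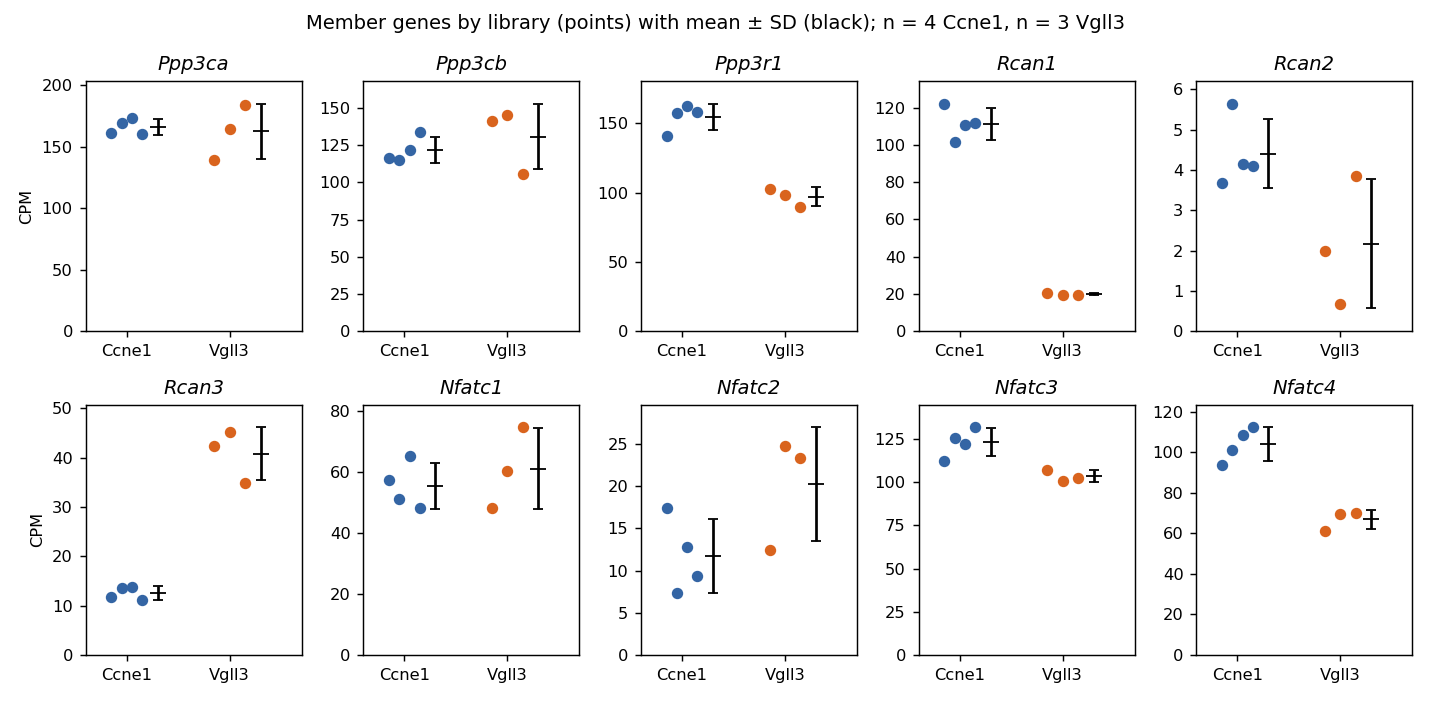
CPM of each of the 10 genes (y axis, from 0) in every library; points are libraries, blue for the 4 Ccne1-labelled and orange for the 3 Vgll3-labelled, and black marks give mean ± SD. Rcan1 sits between 101 and 122 CPM in the Ccne1-labelled libraries and at 19.5 to 20.7 CPM in the Vgll3-labelled ones, Rcan3 is arranged the other way round, and Ppp3ca, Ppp3cb, Nfatc1, Nfatc2 and Rcan2 overlap between groups.

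To compare levels between genes, CPM was divided by the length of each gene's merged exons in kb. On that scale Rcan1 made up 91.2% ± 1.52 (SD, n = 4) of the summed RCAN level in the Ccne1-labelled libraries and 43.3% ± 1.86 (SD, n = 3) in the Vgll3-labelled ones. Rcan3 made up 6.25% ± 0.942 and 53.3% ± 4.49, and Rcan2 2.57% ± 0.654 and 3.41% ± 2.66. The ratio of Rcan1 to Rcan3 per kb was 17.4, 12.3, 13.3 and 16.5 in Ccne1-labelled replicates 1 to 4 and 0.809, 0.718 and 0.926 in Vgll3-labelled replicates 1 to 3. Rcan1 was thus the main RCAN transcript in every Ccne1-labelled library, and the Rcan3 level per kb was above that of Rcan1 in every Vgll3-labelled one. That last order depends on the length used: with the longest annotated transcript in place of merged exons the ratio was 1.07, 0.953 and 1.23 in the Vgll3-labelled libraries and 16.3 to 23.1 in the Ccne1-labelled ones. The summed RCAN level was 39.6 ± 2.41 CPM per kb in the Ccne1-labelled and 14.9 ± 0.786 CPM per kb in the Vgll3-labelled libraries, lower in each Vgll3-labelled library (14.03 to 15.4) than in any Ccne1-labelled one (36.8 to 42.7).

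**Figure D2:**
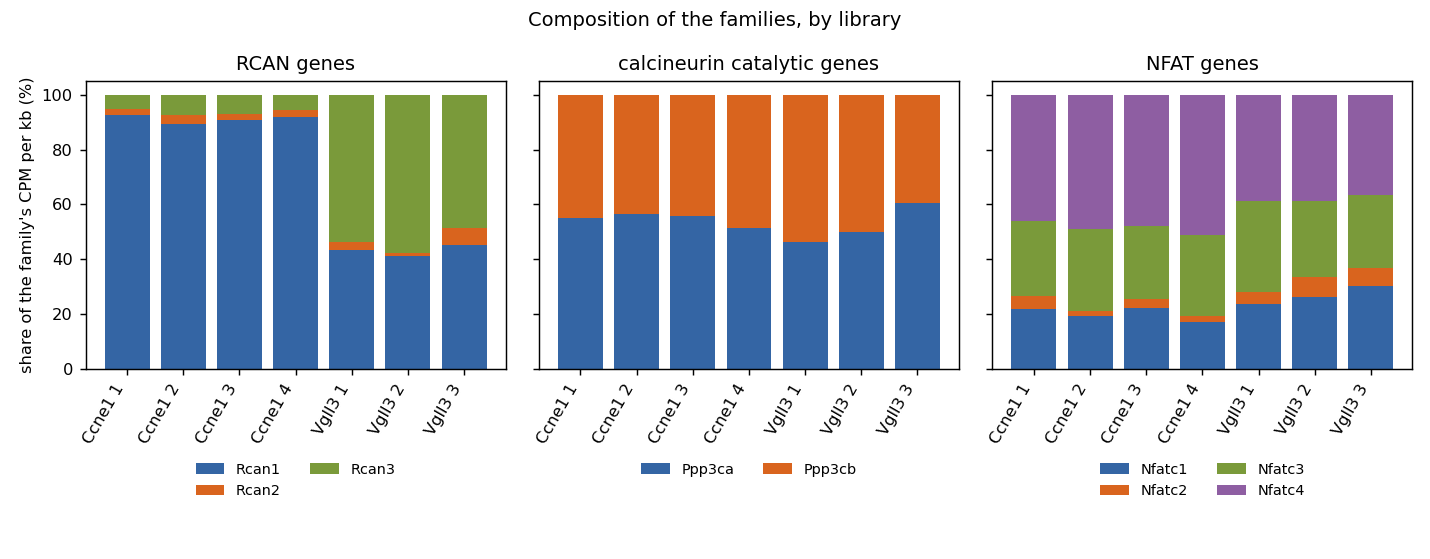
Share of each gene in its family's summed CPM per kb (y axis, percent) for each library (x axis), in the RCAN, calcineurin catalytic and NFAT genes. The calcineurin catalytic panel holds Ppp3ca and Ppp3cb and leaves out Ppp3cc. Rcan1 holds 89.2 to 92.7% of the RCAN level in the Ccne1-labelled libraries and 41.4 to 45.1% in the Vgll3-labelled ones, while the NFAT bars change less.

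Both genes were set against their surroundings, since the 2 tumour lines could differ in whole chromosome segments. The 49 tested genes within 5 Mb of Rcan1 had a median log2 fold change of 0.04, and 1 of them, Cbr3, had a lower value than Rcan1 (−3.38). The nearest tested genes on either side, Smim11 and Runx1, had log2 fold changes of 0.09 and −0.02. The next beyond Smim11, Mrps6 and Slc5a3, had −0.85 and −2.06 and were both called lower. In the whole window 10 genes were called lower and 11 higher. The 121 tested genes within 5 Mb of Rcan3 had a median of 0.30, of which 63 were called higher and 14 lower, and the median over the other tested genes of chromosome 4 was 0.44. The difference in Rcan3 was 1.39 above its window's median, and 8 of the 121 neighbours had a higher value. Beside Rcan3, Nipal3 had −2.15 and Srrm1 0.61. These neighbours were named for their position after their values were seen. The part of the higher values along chromosome 4 in the level of Rcan3 was not tested.

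**Figure D3:**
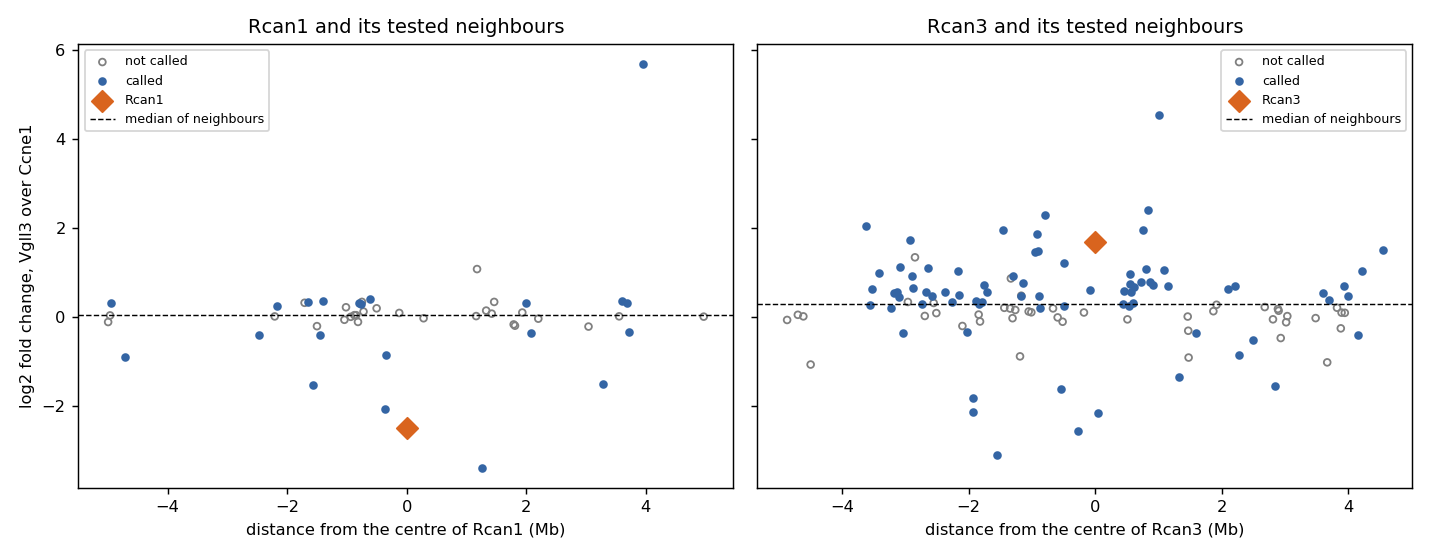
Log2 fold change of Vgll3-labelled over Ccne1-labelled libraries (y axis) against distance in Mb from the centre of Rcan1 (left) or Rcan3 (right); filled points passed an edgeR adjusted p of 0.05, open points did not, the diamond is the gene itself and the dashed line the median of its neighbours. The median is 0.04 around Rcan1 and 0.30 around Rcan3.

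Among the calcineurin subunits, the 2 catalytic genes overlapped between groups and the regulatory gene was lower in the Vgll3-labelled libraries. Ppp3ca (chromosome 3), the alpha catalytic subunit, had 161, 169, 173 and 160.0 CPM in Ccne1-labelled replicates 1 to 4 and 139, 164 and 184 CPM in Vgll3-labelled replicates 1 to 3, with a log2 fold change of −0.03 and SE 0.10. Ppp3cb (chromosome 14), the beta catalytic subunit, had 116, 115, 122 and 134 CPM and then 142, 145 and 106 CPM, with a log2 fold change of 0.10 and SE 0.12. Both genes overlapped between groups, and both varied more among the Vgll3-labelled libraries than among the others. Vgll3-labelled replicate 3 was the highest of all 7 for Ppp3ca and the lowest of all 7 for Ppp3cb. The Ppp3ca share of their summed level per kb was 46.5%, 49.9% and 60.6% in Vgll3-labelled replicates 1 to 3, against 51.4 to 56.5% in the Ccne1-labelled libraries. Their summed level was 30.4 ± 0.927 CPM per kb under the Ccne1 label and 31.1 ± 1.60 CPM per kb under the Vgll3 label.

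Ppp3r1 (chromosome 11), the regulatory B subunit, had 141, 157, 162 and 158 CPM in Ccne1-labelled replicates 1 to 4. It had 103, 98.6 and 89.4 CPM in Vgll3-labelled replicates 1 to 3, so the groups did not overlap. The means were 154 ± 9.53 and 96.9 ± 6.85 CPM, 1.59-fold higher in the Ccne1-labelled libraries, with a log2 fold change of −0.67 and SE 0.08. Its level per kb relative to Ppp3ca plus Ppp3cb was 1.49 to 1.62 in the Ccne1-labelled libraries and 0.911 to 1.06 in the Vgll3-labelled ones. With the longest transcript as the length, the same ratio was 0.811 and 0.497 on average, lower in both groups but in the same order. Exons of Ppp3r1 overlap those of Wdr92 on the same strand, which had at most 766 counts in a library. Reads may be shared between the 2 genes, and how many was not counted. The 28 tested genes within 5 Mb of Ppp3r1 had a median log2 fold change of −0.40, which the gene's own value exceeded in size by 0.27; the part of that segment in the difference was not tested.

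Among the NFAT genes, Nfatc4 was lower in the Vgll3-labelled libraries, Nfatc3 slightly lower, and Nfatc1 and Nfatc2 overlapped between groups. Nfatc4 (chromosome 14), which is widely expressed outside the immune system, had 93.5, 101, 109 and 112 CPM in Ccne1-labelled replicates 1 to 4 and 61.4, 69.4 and 69.98 CPM in Vgll3-labelled replicates 1 to 3. The lowest Ccne1-labelled library stood well above the highest Vgll3-labelled one. The ratio of means was 1.55-fold, higher in the Ccne1-labelled libraries, with a log2 fold change of −0.64 and SE 0.09.

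Nfatc3 (chromosome 8), another widely expressed family member, had 112, 126, 122 and 132 CPM and then 107, 101 and 103 CPM. Its groups were close but did not overlap, with a log2 fold change of −0.25 and SE 0.07. Exons of Esrp2 overlap it on the opposite strand, with at most 12 counts in a library. The 103 tested genes within 5 Mb of Nfatc3 had a median log2 fold change of −0.19, with 46 called lower and 13 higher. The value of Nfatc3 lay only 0.06 below that median, and the part of that segment in the difference was not tested.

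Nfatc1 (chromosome 18), known for its need in osteoclasts and in heart valve endocardium, had 57.4, 51.2, 65.3 and 48.1 CPM in Ccne1-labelled replicates 1 to 4 and 48.2, 60.4 and 74.6 CPM in Vgll3-labelled replicates 1 to 3. The log2 fold change was 0.14 with SE 0.16, and it was −0.03 without Vgll3 replicate 3. The summed level of 7 endothelial markers was 120, 42.9, 75.9 and 47.6 CPM in the Ccne1-labelled and 29.3, 55.6 and 218 CPM in the Vgll3-labelled replicates, so the library with the highest Nfatc1 level also had the highest endothelial sum, 184 CPM of it from Pecam1. Of these markers, Pecam1 and Kdr were highest in that library, Vgll3-labelled replicate 3. Cdh5, Tie1, Tek, Emcn and Cldn5 were instead highest in Ccne1-labelled replicate 1 (Cdh5 26.2 CPM there and 17.2 CPM in Vgll3-labelled replicate 3). The part of the endothelial markers in the Nfatc1 values was not tested. Of 7 osteoclast markers, 5 of them also on the NFAT target list used below, Dcstamp had no count in any library and the sum stayed between 1.78 and 6.05 CPM. Only 3 of the 7 were tested. Acp5 was higher under the Vgll3 label, 0.206 ± 0.156 and 0.753 ± 0.420 CPM (edgeR adjusted p = 0.0457). Ctsk and Atp6v0d2 were not called (edgeR adjusted p = 0.644 and 0.659). The part of these markers in the Nfatc1 values was not tested.

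Nfatc2 (chromosome 2), prominent in T cells, had the lowest level per kb among the NFAT genes. It had 17.4, 7.29, 12.8 and 9.37 CPM in Ccne1-labelled replicates 1 to 4 and 12.5, 24.8 and 23.4 CPM in Vgll3-labelled replicates 1 to 3. Vgll3-labelled replicate 1 lay within the range of the other group. The log2 fold change was 0.79 with SE 0.35, and it ranged from 0.61 to 1.05 over the alternative analyses. The 8 T cell markers summed to 2.18 to 3.08 CPM and 1.99 to 2.71 CPM, and Cd3d and Cd3e stayed at or under 0.134 CPM in every library. Only 2 of the 8, Trac and Lck, were tested. Trac was 1.66 ± 0.258 and 0.861 ± 0.357 CPM (edgeR adjusted p = 0.06). Lck was 0.685 ± 0.126 and 1.007 ± 0.0871 CPM (edgeR adjusted p = 0.196). Neither gene overlapped between groups, and Lck had the direction of Nfatc2 while Trac had the opposite one. The part of T cell markers in the Nfatc2 values was not tested.

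Within the NFAT family, Nfatc4 had the largest share of the level per kb in both groups, 48.4% ± 2.08 in the Ccne1-labelled and 37.9% ± 1.21 in the Vgll3-labelled libraries. Nfatc3 held 28.4% ± 1.66 and 29.2% ± 3.71, Nfatc1 20.1% ± 2.51 and 26.7% ± 3.37, and Nfatc2 3.02% ± 1.22 and 6.19% ± 1.69. The lead of Nfatc4 did not depend on the length in the Ccne1-labelled libraries, but with the longest transcript it was close to Nfatc3 in the Vgll3-labelled ones (34.98% against 34.3%). The summed NFAT level was 36.9 ± 1.90 and 30.4 ± 2.86 CPM per kb.

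Over the 10 genes, 5 did not overlap between groups, where 55.7% of all genes tested did not, and the same 5 had an edgeR adjusted p under 0.05, where 51.9% of all genes did. Of these, 1 (Rcan3) was higher and 4 (Rcan1, Ppp3r1, Nfatc4 and Nfatc3) were lower in the Vgll3-labelled libraries. Since the list was chosen with this comparison known, nothing is read from these shares. The median log2 fold change of the 10 was −0.14, against 0.01 over all genes tested. By level per kb, the order in the Ccne1-labelled libraries was Ppp3r1 (47.9), Rcan1 (36.1), Nfatc4 (17.9), Ppp3ca (16.6), Ppp3cb (13.8), Nfatc3 (10.5), Nfatc1 (7.43), Rcan3 (2.46), Nfatc2 (1.11) and Rcan2 (1.01). Neighbours whose library values overlapped there were Nfatc4 with Ppp3ca and Nfatc2 with Rcan2. In the Vgll3-labelled libraries the order was Ppp3r1 (30.02), Ppp3ca (16.3), Ppp3cb (14.9), Nfatc4 (11.5), Nfatc3 (8.83), Nfatc1 (8.18), Rcan3 (7.98), Rcan1 (6.46), Nfatc2 (1.91) and Rcan2 (0.497). There Ppp3ca with Ppp3cb, Ppp3cb with Nfatc4, Nfatc3 with Nfatc1 and Nfatc1 with Rcan3 overlapped. Rcan1 thus stood at rank 2 of the 10 in one group and at rank 8 in the other. With the longest transcript as the length, Rcan1 stood at ranks 2 and 7, and in the Vgll3-labelled libraries Ppp3cb, Ppp3ca and Ppp3r1 overlapped at the top.

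The genes whose log2 CPM followed Rcan1 and Rcan3 most closely over the 7 libraries were sought among the 9228 other tested genes whose higher group reached 10 CPM. For Rcan1 these included Hsd17b10 and Efna4, with a Pearson r of 0.998 and 0.997, and 110 genes had an r of at least 0.99. Efna4, which encodes an ephrin ligand, was 18.2 ± 0.786 and 6.99 ± 0.273 CPM. For Rcan3 these were Arhgap9, Pcdh19 and Pcdh18, with r of 0.998, 0.997 and 0.996, and 53 genes had an r of at least 0.99. Pcdh18, a protocadherin, was 35.04 ± 2.68 and 127 ± 17.1 CPM. The groups lie apart for all of these genes, so r mainly measures a shared difference between groups. After the group means were removed, r was 0.865 to 0.923 for the 3 genes like Rcan3, 0.556 for Hsd17b10 and 0.312 for Efna4. All were picked for a high r over the same 7 libraries, which itself favours a high r within groups.

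The wider pathway was examined through 89 further genes in 7 lists, of which 72 were tested. Of these 41 (56.9%) had an edgeR adjusted p under 0.05, with 14 higher and 27 lower in the Vgll3-labelled libraries, beside 25.1% of all genes higher and 26.8% lower. The median log2 fold change was −0.09. Values below are means in the Ccne1-labelled and then the Vgll3-labelled libraries, and adjusted p-values are from the edgeR quasi-likelihood test over all genes.

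Of the family genes outside the 10, 2 were tested and 1 rose. Ppp3cc, the gamma catalytic subunit, rose from 18.6 ± 1.61 to 31.3 ± 6.03 CPM (edgeR log2 fold change 0.75, adjusted p = 0.00154). Nfat5, which responds to osmotic stress and is not driven by calcineurin, was 487 ± 48.9 and 460 ± 70.4 CPM. Ppp3r2, the testis form of the B subunit, had no count in any library.

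Of the genes whose proteins bind calcineurin or its drugs, 7 were tested, of which 0 rose and 3 fell (1 rose and 4 fell without Vgll3 replicate 1). Myoz2, which encodes calsarcin-1, a protein that tethers calcineurin to the muscle Z-disc, fell from 4.25 ± 1.06 to 0.386 ± 0.252 CPM (edgeR log2 fold change −3.46, adjusted p = 0.000249). Fkbp1a, the binding partner of the drug FK506, fell from 415 ± 16.4 to 316 ± 37.1 CPM (edgeR log2 fold change −0.39, adjusted p = 0.00618). The third was Ppia, which encodes cyclophilin A, the partner of cyclosporin. Fkbp1a and Ppia have close copies in the genome among which reads can be split. The 8 skeletal muscle markers summed to 0.872 to 1.24 CPM under the Ccne1 label and 60.7 to 218 CPM under the Vgll3 label, nearly all of the latter from Cdh15. Myod1 and Myog were at 0 in every library. Only 2 of the 8, Cdh15 and Des, were tested, and both were higher under the Vgll3 label by edgeR. Des was 0.776 ± 0.196 and 1.58 ± 0.298 CPM (edgeR adjusted p = 0.0335). The part of the muscle markers in the Myoz2 difference was not tested.

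Of the 17 genes of calcium supply and removal, 4 rose and 8 fell (5 fell without Ccne1 replicate 3 or 4 or Vgll3 replicate 2). The IP3 receptors, the channels that release calcium from the endoplasmic reticulum, moved apart. Itpr3 fell from 421 ± 29.7 to 118 ± 11.4 CPM (edgeR log2 fold change −1.84, adjusted p = 4.19e-06), and Itpr1 rose from 50.4 ± 1.44 to 75.2 ± 5.91 CPM (edgeR log2 fold change 0.58, adjusted p = 0.00023). Plcg2, a phospholipase that makes IP3, fell from 4.06 ± 0.413 to 0.845 ± 0.0694 CPM (edgeR log2 fold change −2.26, adjusted p = 6.82e-05). Atp2b4, a plasma membrane calcium pump, rose from 35.7 ± 9.22 to 83.4 ± 19.3 CPM (edgeR log2 fold change 1.22, adjusted p = 0.00307).

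Of 16 tested kinases and other regulators of NFAT, 1 rose and 7 fell. Dyrk3 and Dyrk1b, of the DYRK kinase family whose members phosphorylate NFAT, fell from 9.54 ± 1.01 to 3.68 ± 0.432 CPM (adjusted p = 0.000106 by edgeR) and from 15.5 ± 1.76 to 6.41 ± 2.32 CPM (edgeR adjusted p = 0.00137). The other tested members of that family on the list did not pass the test. Dyrk1a was 80.3 ± 9.21 and 78.4 ± 7.52 CPM (edgeR adjusted p = 0.797), and Dyrk2 was 71.4 ± 2.10 and 70.6 ± 9.13 CPM (edgeR adjusted p = 0.900). Csnk1a1, casein kinase 1 alpha, rose from 353 ± 23.6 to 460.3 ± 72.9 CPM (edgeR log2 fold change 0.38, adjusted p = 0.0169). That call ended without Vgll3 replicate 1 (edgeR adjusted p = 0.0604), where none rose.

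Of 10 genes for other calcineurin substrates, 1 rose and 4 fell. Tfeb, the lysosomal transcription factor that calcineurin dephosphorylates, fell from 9.43 ± 0.638 to 3.16 ± 0.314 CPM (edgeR log2 fold change −1.58, adjusted p = 3.6e-05), and Mef2d from 268 ± 20.004 to 159 ± 6.62 CPM (edgeR log2 fold change −0.75, adjusted p = 9.11e-05). Crtc1, a CREB coactivator, rose from 23.9 ± 1.68 to 30.6 ± 3.48 CPM (adjusted p = 0.0132 by edgeR). Of 7 AP-1 genes, 2 rose and 1 fell. Jun rose from 3346 ± 398 to 5180 ± 920 CPM (adjusted p = 0.00461 by edgeR) and Fosl1 from 102 ± 9.94 to 144 ± 10.2 CPM (edgeR adjusted p = 0.00188), while Fosl2 fell from 401 ± 48.5 to 211 ± 50.4 CPM (edgeR adjusted p = 0.00164).

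Genes known as NFAT targets in other cell types went both ways. Of 24 on the list 13 were tested, of which 5 rose, Acp5 among them, and 4 fell. With no low-count filter or with the replicate block 4 rose, and 6 rose by DESeq2. Without Ccne1 replicate 2, 3 or 4 or Vgll3 replicate 2, 4 rose. The lymphocyte genes Il2, Il4, Ifng, Tnf, Fasl and Cd40lg were among the 11 too low to test. Egr2, a zinc finger factor induced by NFAT in T cells, rose from 6.17 ± 0.940 to 65.7 ± 7.96 CPM (edgeR log2 fold change 3.42, adjusted p = 2e-06), and the cation channel gene Trpc6 from 0.141 ± 0.0372 to 1.05 ± 0.443 CPM (edgeR adjusted p = 0.00104). In Ccne1-labelled replicates 1 and 3 Trpc6 was 0.136 and 0.0929 CPM, which is only 3 counts, so the size of its rise is uncertain. Nppb, which encodes the natriuretic peptide BNP, fell from 8.44 ± 1.60 to 0.453 ± 0.160 CPM (edgeR log2 fold change −4.17, adjusted p = 1.17e-05). Itgb3, the integrin beta 3 gene, fell from 82.0 ± 10.03 to 5.44 ± 4.43 CPM (edgeR log2 fold change −3.94, adjusted p = 0.00149), and its log2 fold change was −4.86 without Vgll3 replicate 3. The direction of Rcan1, itself a target of NFAT, was shared by Nppb and Itgb3 and not by Egr2 and Trpc6. These 4 were named as the called targets with the 2 highest and 2 lowest fold changes. That rule fixed the split between directions, so nothing is read from it.

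**Figure D4:**
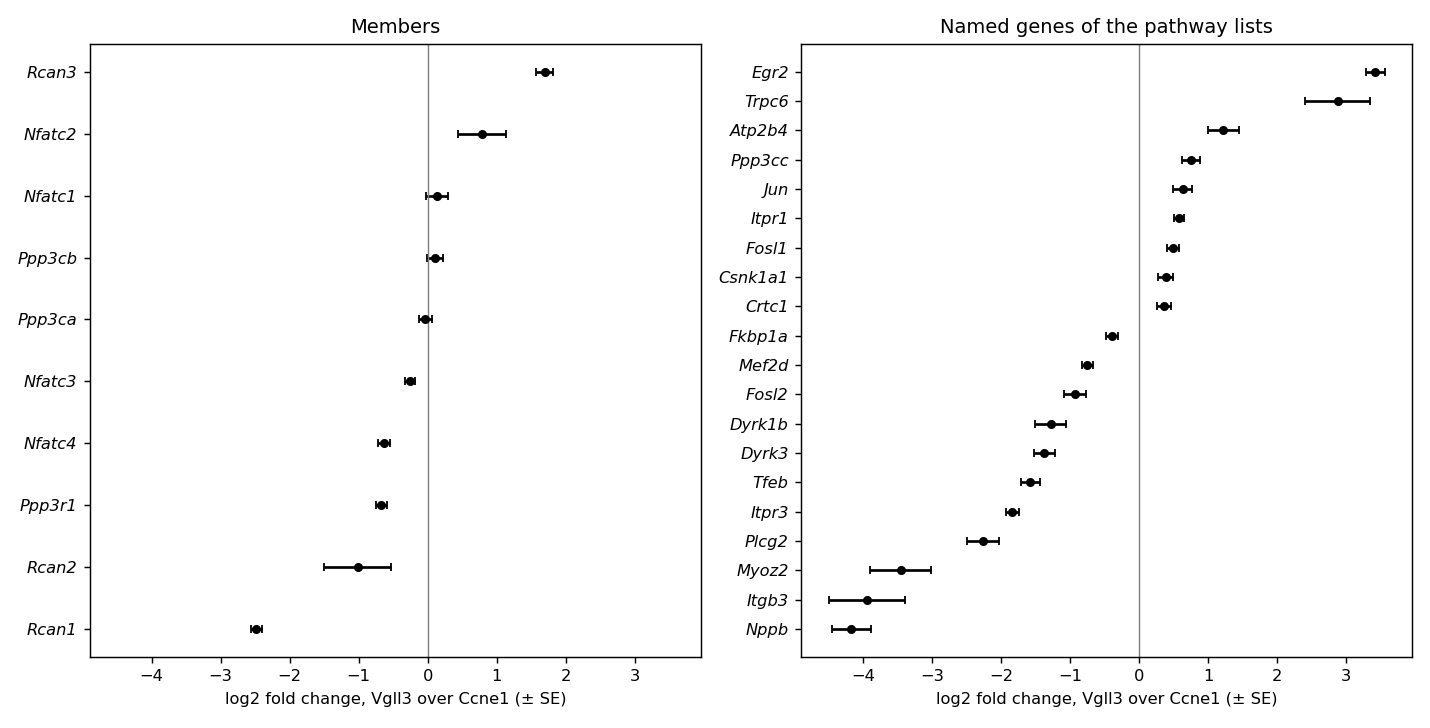
Log2 fold change of Vgll3-labelled over Ccne1-labelled libraries with its SE (x axis) for the 10 genes (left) and the 20 named genes of the pathway lists (right), from the edgeR fit; values right of 0 are higher in the Vgll3-labelled libraries. The 10 genes run from −2.48 (Rcan1) to 1.69 (Rcan3), with Ppp3ca, Ppp3cb and Nfatc1 near 0.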

How the data were processed

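PolyA RNA-seq libraries of RFP-sorted mouse sarcoma cells were grouped by their titles (4 Ccne1, 3 Vgll3). The authors deposited 1 table of estimated counts by Ensembl gene, made with Salmon on mm10, per the submitters' processing notes; version, annotation and strand setting: not given in the sources used here. All values were whole. Symbols, gene bounds and exon lengths came from a GENCODE annotation of GRCm38 (the build of mm10); 35422 of 35727 genes had a symbol. The gene test was that of edgeR 4.0.16 in R 4.3.3: filterByExpr, TMM scaling, robust quasi-likelihood F test, Benjamini-Hochberg threshold 0.05; 13740 genes were tested. The test was checked on simulated counts. Log2 CPM used a prior count of 3, and the floor of 3 counts was 0.0577 to 0.136 CPM (counting error only).

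The 10 genes, the lists and the rule for named genes were chosen with earlier results of these data known. The rule takes the 10 genes, Ccne1 and Vgll3, per list up to 2 called genes with the highest and 2 with the lowest fold change, and the 3 genes most like the members with the highest and lowest fold change. Other genes (Nfat5, Ppp3r2, Ppia, Dyrk1a, Dyrk2, mesenchymal and other cell type markers, the neighbours and untested targets) were named after their values were seen. Alternatives were RLE scaling, no filter, DESeq2 1.42.0, limma-voom (limma 3.58.1), a replicate block, each library left out, and another gene length. 1 gene that the last part of the rule names is not reported here.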

Additional observations from a re-analysis of the deposited data

Results flagged for a closer look

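The Ccne1-labelled group was checked for a library far from the others in the 10 genes and the 20 named pathway genes; chance gives about 1 such flag in 20 groups, and there was 1. Plcg2 was 3.45 CPM in Ccne1 replicate 4, against 4.20 to 4.34 CPM in the other 3.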

How the results depend on the processing

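All 120 recomputed log2 fold changes of the 10 genes (12 alternatives each) lay within 1 SD of the spread between libraries. Leaving out 1 library moves a group mean by only part of that SD, so those fits could hardly fall outside it. The yardstick is also wide for a variable gene, since Rcan2 passed while running from −1.66 to −0.61. Over the 120 values, Rcan1 ran from −2.52 to −2.44 and Rcan3 from 1.61 to 1.80. The sign of Ppp3ca changed without Vgll3 replicate 1 (0.06) and that of Nfatc1 without Vgll3 replicate 3 (−0.03). Of 240 recomputed values of the 20 named pathway genes, 236 kept their side of the threshold and 4 lost the call: Csnk1a1 without Vgll3 replicate 1 as given above, and Csnk1a1, Crtc1 and Jun with the replicate block (edgeR adjusted p = 0.0933, 0.0669 and 0.056). Of the genes named beside these, Ppia, Orai1 and Stim1 were also not called with the block (edgeR adjusted p = 0.0932, 0.180 and 0.166). The replicate block gave 2287 genes higher and 2554 lower in the Vgll3-labelled libraries, against 3454 and 3679 without it, and 10 and 21 pathway genes against 14 and 27. Whether a replicate number marks a shared batch is not given by the labels. The deviations of same-numbered libraries from their group means had r of −0.151, −0.167 and −0.103 across genes. Libraries with unlike numbers had r of −0.036 to 0.155. Deviations within a group sum to 0, so these r cannot decide whether the numbers pair the libraries. Leaving out 1 library gave 2894 to 3577 genes higher and 3129 to 3757 lower, and 13 to 16 and 23 to 28 pathway genes. With the longest transcript as the length, Rcan1 made up 49.8% of the RCAN level in the Vgll3-labelled libraries. Rcan3 then made up 4.79% in the Ccne1-labelled and 46.3% in the Vgll3-labelled ones. Ppp3ca made up 52.3% of the summed level of Ppp3ca and Ppp3cb in the Ccne1-labelled ones. Nfatc3 held 33.5% and 34.3% and Nfatc4 44.8% and 34.98% of the NFAT level in the Ccne1-labelled and Vgll3-labelled ones. Rcan2, with 18 to 293 counts per library, is the member whose values depth limits most.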

Other observations

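The genes of the calcium supply list given here were chosen for mention after their values were seen. Of the store-operated channel genes, Orai1 fell from 14.1 ± 1.06 to 11.2 ± 1.40 CPM (edgeR adjusted p = 0.0349) and Orai2 from 20.7 ± 0.664 to 14.1 ± 0.454 CPM (edgeR adjusted p = 0.000473), while Orai3 was 17.6 ± 0.642 and 19.06 ± 0.950 CPM (edgeR adjusted p = 0.265). Saraf, which encodes an inhibitor of store-operated entry, fell from 199 ± 17.5 to 123 ± 5.53 CPM (edgeR adjusted p = 0.000192). Stim1, the calcium sensor of the store, fell from 26.6 ± 1.36 to 22.8 ± 1.07 CPM (edgeR adjusted p = 0.0396), while Stim2, a related sensor, was 34.1 ± 1.32 and 37.1 ± 0.332 CPM (edgeR adjusted p = 0.159). Leaving out any of Ccne1 replicates 2, 3 and 4 and Vgll3 replicates 1 and 2 ended the calls of both Orai1 (edgeR adjusted p = 0.0543 to 0.119) and Stim1 (0.075 to 0.122), and DESeq2 (0.074) and testing with no low-count filter (0.0777) ended that of Stim1. Among NFAT targets, Egr3 rose from 28.3 ± 5.70 to 64.7 ± 6.83 CPM (adjusted p = 0.000333 by edgeR) and Vcam1 from 93.3 ± 14.1 to 287 ± 60.8 CPM (edgeR adjusted p = 0.000103), and F3, the gene of tissue factor, fell from 206 ± 32.6 to 64.2 ± 16.7 CPM (edgeR adjusted p = 0.000274) and Ptgs2 from 1397 ± 163 to 794 ± 231 CPM (edgeR adjusted p = 0.0062).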
